A study of Mus musculus with 8 samples.

Results

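The genes described here encode linker histones and replacement variants of histone H2A in mouse late morulae depleted of 1 or both of the histone-binding proteins RBBP4 and RBBP7. The 8 members were taken by name: H2afz and H2afv, which encode the 2 forms of H2A.Z, H2afx, H2afy and H2afy2 among the H2A variants, and H1f0, H1fx and H1foo among the linker histones. Each was found in the deposited abundance table through its Ensembl identifier, and they make up 8 of its 19058 genes. Newer names for the same genes include H2az1 for H2afz and H2ax for H2afx.

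Polyadenylated RNA was sequenced from whole embryos collected 78 h after fertilization, with 2 libraries in each of 4 groups. All embryos had been injected as zygotes. The double knockdown received small interfering RNA (siRNA) against both Rbbp4 and Rbbp7, the Rbbp4 knockdown siRNA against Rbbp4, the Rbbp7 knockdown siRNA against Rbbp7, and the control a non-specific siRNA. The study's title concerns overlapping roles of the 2 proteins in proliferation and in deposition of histone H3.3, so the single and double knockdowns are compared below with the control and with each other. The labels give no strain, and nothing in them says that both libraries in a group stem from different pools of embryos. The p-values therefore measure only the spread between these libraries, which may be technical.

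Linker histones bind the DNA that enters and leaves the nucleosome and compact chromatin, while H2A variants replace the canonical H2A inside it. H2A.Z is exchanged into nucleosomes near start sites by the SRCAP and TIP60-EP400 complexes, H2AX is phosphorylated around DNA breaks, and macroH2A, the product of H2afy and H2afy2, carries a large extra domain and is enriched on the inactive X chromosome. Replacement variant genes give polyadenylated messages, unlike most canonical histone genes, whose messages end in a stem loop and are largely missed by oligo(dT) capture. H2afx is known to give messages of both kinds, of which this capture favours the polyadenylated one. RBBP4 and RBBP7 are subunits of several chromatin complexes, among them CAF-1, NuRD and polycomb repressive complex 2.

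Values below are the abundances that the authors normalized between libraries, here called normalized abundance, and a level per kb is that value per kilobase of annotated exon. Library totals ranged from 11334107 to 12011829. Rbbp4 was at 348 and 433 in the double knockdown, 402 and 343 after Rbbp4 knockdown alone, 4370 and 4467 after Rbbp7 knockdown alone, and 5300 and 4710 in the control. Rbbp7 was at 327 and 266 in the double knockdown, 6696 and 6295 after Rbbp4 knockdown alone, 298 and 293 after Rbbp7 knockdown alone, and 8399 and 7205 in the control. Each siRNA thus lowered its own target in every library that received it. All 10 morula markers examined were detected in every library. Control replicate 1 stood apart, with 3937 genes at 0 where the remaining 7 libraries had 2644 to 3237, and 6.21% of its signal was mitochondrial where theirs was 4.26% to 5.53%. The members' log2 changes against the control are therefore also given without it where they move by more than 1.5 times or change sign.

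In late morulae the 8 genes spanned a wide range of levels. H2afz averaged 3324 ± 599 per kb over the 8 libraries and H2afx 2139 ± 421 (SD, n = 8). H2afv averaged 405 ± 53.0, H2afy 275 ± 42.2, H1f0 184 ± 51.5, H1fx 95.2 ± 50.0, H1foo 6.96 ± 2.19 and H2afy2 6.31 ± 2.89 per kb (SD, n = 8). Between the H2A.Z genes, H2afz was therefore the main one, at 6.10 to 10.8 times the level per kb of H2afv in single libraries. Of the macroH2A genes, H2afy was the one expressed at an appreciable level. Some neighbours in this order did not separate. H2afz and H2afx overlapped over libraries, at 2297 to 4229 and 1521 to 2681 per kb, although H2afz was the higher in each library. H1f0 ranged over 116 to 270 per kb, which overlapped H2afy at 212 to 332 and H1fx at 48.9 to 210. H1foo and H2afy2 ranged over 3.92 to 10.4 and 1.75 to 11.4 per kb. H2afx and H2afv did not overlap, since H2afv stayed between 322 and 490 per kb. That range overlapped the one of H2afy, although H2afv was the higher in each library. Every level per kb rests on the exon bases pooled over a gene's isoforms, which for H2afy are 6809.

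**Figure D1:**
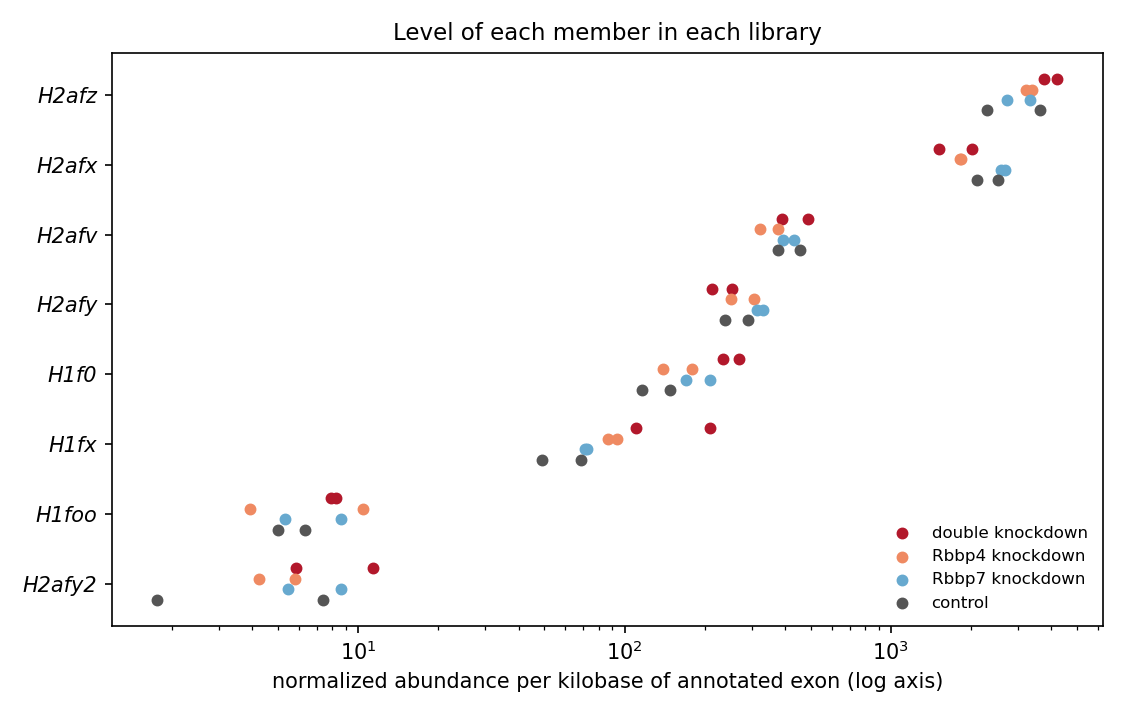
Levels of the 8 genes in each library, as normalized abundance per kb of annotated exon on a log axis, with the double knockdown, Rbbp4 knockdown, Rbbp7 knockdown and control libraries as separate points. H2afz and H2afx lie above 1521 per kb in all 8 libraries, and H1foo and H2afy2 below 11.4.

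No member passed the test in any comparison. Changes were tested with limma on log2(normalized abundance + 1) over 12565 genes, those averaging 10 or more over the libraries, at an adjusted p below 0.05 (Benjamini-Hochberg over all tested genes). Of the 8 members, 7 passed that filter on low values, and H1foo, at a mean of 8.36, did not. In the double knockdown against the control 0 of 7 were called, beside 1.15% of all tested genes, and 4 of 7 had an unadjusted p below 0.05, beside 17.3% of all tested genes. In the Rbbp4 knockdown against the control 0 of 7 were called, beside 0.0239% of all tested genes, and 1 of 7 had an unadjusted p below 0.05, beside 5.86%. In the Rbbp7 knockdown against the control 0 of 7 were called, beside 0.0239%, and 1 of 7 had an unadjusted p below 0.05, beside 9.55%. The interaction, which sets the change in the double knockdown against the added changes of both single ones, called 0 of 7 members, beside 0.00796%, with 1 of 7 at an unadjusted p below 0.05, beside 6.49%. The median log2 change of the 7 members was 0.46 in the double knockdown, 0.19 after Rbbp4 knockdown alone and 0.29 after Rbbp7 knockdown alone, where the medians of all tested genes were −0.0006, 0.0049 and 0.0095. Without control replicate 1 the members' medians were 0.13 in the double knockdown, −0.14 after Rbbp4 knockdown alone and 0.065 after Rbbp7 knockdown alone. These comparisons share their control libraries. In such bulk libraries fewer cells of a type and less RNA per cell cannot be told apart.

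**Figure D2:**
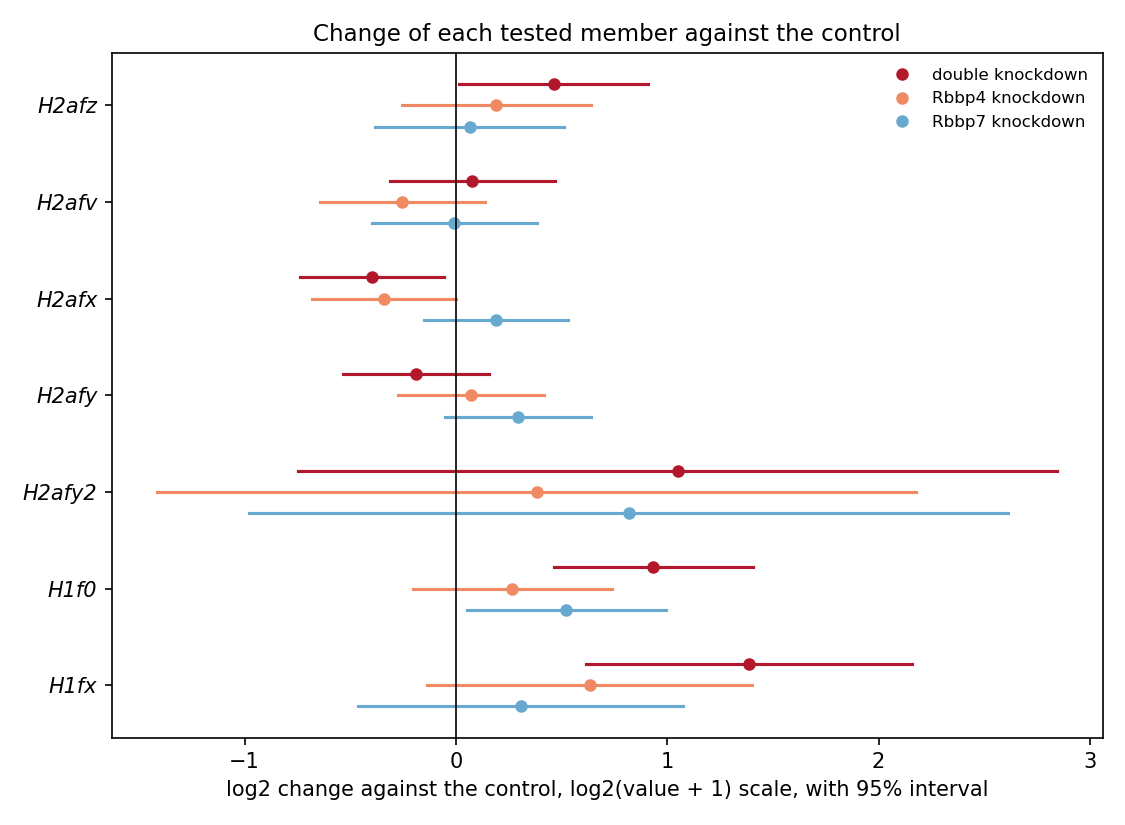
Log2 change of each of the 7 tested genes in the double knockdown, the Rbbp4 knockdown and the Rbbp7 knockdown against the control, with 95% confidence intervals from the limma fit. H1fx and H1f0 in the double knockdown have the intervals farthest above 0, from 0.62 to 2.16 and from 0.46 to 1.40, and no gene passes an adjusted p of 0.05.

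The linker histone genes H1f0 and H1fx had the smallest adjusted p of the members. H1fx encodes H1.10, a divergent linker histone whose gene stands outside the histone clusters, and lies on chromosome 6 at 87980421 to 87981637, minus strand (GRCm38, GENCODE M21; a single-exon gene overlapped by Gm47286 and Gm5577). H1f0 encodes H1.0, a replacement linker histone known to accumulate in differentiated and non-dividing cells, and lies on chromosome 15 at 79028450 to 79030504, plus strand, with the antisense gene Gm49544. Whether reads were counted by strand is not given in the sources used here, so reads of a gene and of its overlapping or antisense partner cannot be told apart. The sequences just upstream of both starts are shown because these are the 2 members with the smallest p in the double knockdown. They were taken from RefSeq on GRCm38.p6 and are printed 5′ to 3′ on the gene's own strand, with CpG dinucleotides in capitals. They cover chr6:87981638-87981732 for H1fx, minus strand, and chr15:79027962-79028211 for H1f0, plus strand. The RefSeq start of H1f0 lies 238 bases upstream of the GENCODE start given above, and its stretch is the 250 bases before the RefSeq start. The RefSeq start of H1fx lies 155 bases inside the GENCODE gene, so only the 95 bases outside both annotations are shown.
H1fx: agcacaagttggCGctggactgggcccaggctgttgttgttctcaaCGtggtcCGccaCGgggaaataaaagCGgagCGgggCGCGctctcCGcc
H1f0: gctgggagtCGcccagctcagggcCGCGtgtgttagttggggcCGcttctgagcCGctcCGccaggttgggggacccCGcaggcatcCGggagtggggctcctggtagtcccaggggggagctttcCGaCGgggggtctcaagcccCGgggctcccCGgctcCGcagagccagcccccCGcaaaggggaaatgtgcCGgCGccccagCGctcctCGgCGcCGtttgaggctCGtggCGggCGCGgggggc
The printed 95 bases of H1fx hold 9 CpG dinucleotides and the 250 bases of H1f0 hold 24. Over the 250 bases upstream of the RefSeq start, H1fx had 30 CpG and 75.2% GC and H1f0 had 24 CpG and 74.4% GC. Both exceeded the upper quartiles over the promoters of all genes, which were 16 CpG and 61.2% GC.

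H1fx was at 256 and 134 in the double knockdown, 114 and 105 after Rbbp4 knockdown alone, 88.1 and 86.4 after Rbbp7 knockdown alone, and 59.5 and 83.2 in the control. Both control libraries lay below every knockdown library, and the 2 double knockdown libraries, which differed from each other by more than those of any other group, lay above all others. How many of all tested genes have the 2 libraries of a group above or below all others was not counted, here or for the genes below. The log2 change in the double knockdown against the control was 1.39 ± 0.34 (SE), a 2.61-fold higher level, with an adjusted p of 0.0938. It was 0.63 ± 0.34 in the Rbbp4 knockdown (adjusted p = 0.859) and 0.31 ± 0.34 in the Rbbp7 knockdown (adjusted p = 0.812). Without control replicate 1 the change in the double knockdown was 1.15 ± 0.40 (adjusted p = 0.244). It was then 0.39 ± 0.40 after Rbbp4 knockdown alone and 0.07 ± 0.40 in the Rbbp7 knockdown.

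H1f0 was at 555 and 482 in the double knockdown, 369 and 287 after Rbbp4 knockdown alone, 350 and 431 after Rbbp7 knockdown alone, and 239 and 306 in the control. The double knockdown libraries again lay above all 6 others, and the Rbbp4 knockdown overlapped the control. The log2 change in the double knockdown against the control was 0.93 ± 0.21, a 1.91-fold higher level, with an adjusted p of 0.0739, the smallest of any member in any of these comparisons. It was 0.27 ± 0.21 in the Rbbp4 knockdown (adjusted p = 0.901) and 0.52 ± 0.21 in the Rbbp7 knockdown (adjusted p = 0.481). Without control replicate 1 the change in the double knockdown was 0.76 ± 0.24 (adjusted p = 0.213), that in the Rbbp4 knockdown 0.09 ± 0.24 and that in the Rbbp7 knockdown 0.34 ± 0.24. The interaction was 0.15 ± 0.30 for H1f0 (95% interval −0.52 to 0.81, adjusted p = 0.948) and 0.45 ± 0.48 for H1fx (−0.64 to 1.54, adjusted p = 0.891), or 0.32 ± 0.31 and 0.69 ± 0.52 without that library, so these libraries did not resolve whether the double knockdown departed from the sum of the single ones.

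H1foo encodes the oocyte linker histone, which is stored in the egg and lost during early cleavage. It lies on chromosome 6 at 115944938 to 115950236, plus strand. It was at 9.45 and 9.88 in the double knockdown, 4.70 and 12.5 after Rbbp4 knockdown alone, 6.37 and 10.4 after Rbbp7 knockdown alone, and 7.60 and 6.02 in the control. In each single knockdown the libraries differed by more than the group means did, which ran from 6.81 to 9.67. In the double knockdown and the control they differed by less. H1foo was not tested. Together the 3 linker genes summed to 488 and 353 per kb in the double knockdown, 277 and 236 after Rbbp4 knockdown alone, 248 and 289 after Rbbp7 knockdown alone, and 171 and 222 in the control. H1f0 supplied 55.3% to 72.5% of this sum in each library and H1foo at most 4.41%.

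Of 8 other linker histone genes listed, 6 were in the table and only Hist1h1c, which encodes H1.2, was abundant enough to test. It was at 92.7 and 63.0 in the double knockdown, 43.7 and 33.8 after Rbbp4 knockdown alone, 27.0 and 50.0 after Rbbp7 knockdown alone, and 24.1 and 30.1 in the control. The double knockdown libraries were the highest of the 8, and the log2 change against the control was 1.47 ± 0.44 with an adjusted p of 0.140. Markers of cumulus and granulosa cells, the somatic cells around the oocyte, were examined beside these values. Of 12 such markers 6 were in the table, and their summed level was 184 to 275 in the double knockdown, 129 to 207 after Rbbp4 knockdown alone, 92.0 to 140 after Rbbp7 knockdown alone, and 101 to 119 in the control. The double knockdown's range overlapped that of the Rbbp4 knockdown and lay above the other ranges. Of the 6, 2 were abundant enough to test and 0 were called by limma in any comparison. Foxl2, a defining granulosa transcription factor, was at 101 and 74.4 in the double knockdown, 28.6 and 33.8 after Rbbp4 knockdown alone, 16.6 and 19.8 after Rbbp7 knockdown alone, and 29.3 and 12.0 in the control (log2 change in the double knockdown 2.14 ± 0.51, adjusted p = 0.0892). Amhr2, for a receptor of anti-Müllerian hormone, was at 145 and 87.1 in the double knockdown, 94.2 and 151 after Rbbp4 knockdown alone, 112 and 58.0 after Rbbp7 knockdown alone, and 67.8 and 91.3 in the control (log2 change in the double knockdown 0.51 ± 0.42, adjusted p = 0.569). Foxl2 was higher in both double knockdown libraries than in the other 6, while Amhr2 overlapped between the double knockdown and each other group. The other 4 stayed at or below 15.5 in every library, and Fst was at 0 in both libraries of each single knockdown. The part of these markers in the linker histone values was not tested.

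**Figure D3:**
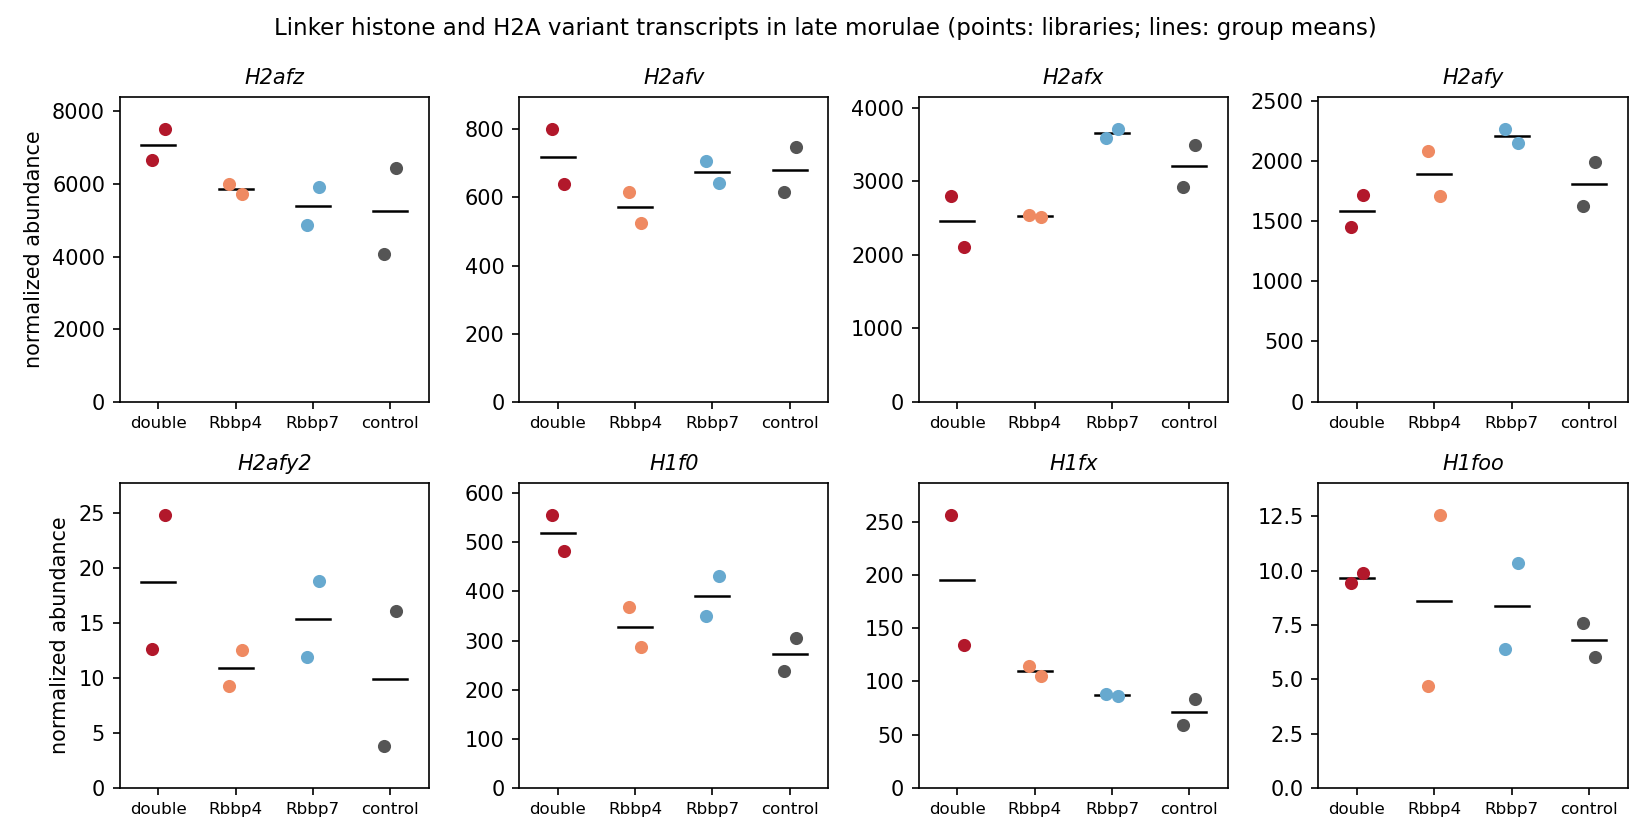
Normalized abundance of each of the 8 genes in every library, 1 panel per gene, with groups in the order double knockdown, Rbbp4 knockdown, Rbbp7 knockdown and control (axis labels double, Rbbp4, Rbbp7 and control) and a line at each group's mean (n = 2). The 2 double knockdown libraries lie above the other 6 for H2afz, H1f0 and H1fx, and the 4 libraries that received Rbbp4 siRNA lie below the other 4 for H2afx. The share of all tested genes with the first arrangement was not counted, and that with the second was 3.58%.

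H2AX had the second pattern. H2afx is an intronless gene on chromosome 9 at 44334694 to 44336077, plus strand, overlapped by Gm44335. Of the annotated genes nearly identical to part of it, Gm11336 alone was in the table, at no more than 3.87. It was at 2805 and 2105 in the double knockdown, 2538 and 2510 after Rbbp4 knockdown alone, 3594 and 3710 after Rbbp7 knockdown alone, and 2930 and 3490 in the control. Every library that received Rbbp4 siRNA lay below every library that did not. The log2 change against the control was −0.40 ± 0.15 in the double knockdown (adjusted p = 0.226), −0.34 ± 0.15 in the Rbbp4 knockdown (adjusted p = 0.850) and 0.19 ± 0.15 in the Rbbp7 knockdown (adjusted p = 0.722). Without control replicate 1 it was −0.52 ± 0.17 in the double knockdown (adjusted p = 0.228) and 0.065 ± 0.17 in the Rbbp7 knockdown (adjusted p = 0.961).

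Because of this arrangement, which was seen in the values first, the average effect of each siRNA was added from the same fit, as 4 libraries with it against 4 without. For Rbbp4 siRNA the average log2 change of H2afx was −0.46 ± 0.11 (95% interval −0.70 to −0.22) with an adjusted p of 0.103. That of H1fx was 0.86 ± 0.24 with an adjusted p of 0.164. These were the 2 members whose 4 libraries did not overlap the other 4, 1 lower and 1 higher of 7, beside 3.58% and 3.50% of all tested genes. For Rbbp7 siRNA the average change of H1f0 was 0.59 ± 0.15 with an adjusted p of 0.158, and 0 of 7 members were without overlap, beside 2.75% higher and 3.43% lower over all tested genes. Neither average called a member by limma, beside 0.470% of all tested genes for Rbbp4 siRNA and 0.0955% for Rbbp7 siRNA. At an unadjusted p below 0.05 there were 3 of 7 members for Rbbp4 siRNA, beside 14.2%, and 1 of 7 for Rbbp7 siRNA, beside 12.7%. Since the contrasts followed the values, they describe these libraries and support nothing further.

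Among 22 genes listed for phosphorylation and reading of H2AX, 20 were tested and 0 were called in the double knockdown by limma, with 3 positive and 17 negative log2 changes and a median of −0.14 where all tested genes had −0.0006. The 2 with the smallest p had positive changes. Ppm1d, a phosphatase that removes the H2AX mark, was at a log2 change of 0.80 ± 0.19 with an adjusted p of 0.0893, and Trp53bp1, a repair factor recruited to it, at 0.67 ± 0.18 with an adjusted p of 0.105. Neither passed the test. Their rise was not particular to the double knockdown. In the Rbbp7 knockdown Ppm1d was at 0.71 ± 0.19 and Trp53bp1 at 0.54 ± 0.18 (adjusted p = 0.277 and 0.368). There the 20 genes had 12 positive and 8 negative changes, with a median of 0.078.

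The 2 genes for H2A.Z encode nearly the same protein from messages that differ in their bases. H2afz lies on chromosome 3 at 137864487 to 137866922, plus strand, and H2afv on chromosome 11 at 6427229 to 6444443, minus strand. Their first 60 coding bases, from the annotated GRCm38 transcripts, are shown because they tell how far reads of the 2 genes can be separated. Bases that differ are in capitals.
H2afz: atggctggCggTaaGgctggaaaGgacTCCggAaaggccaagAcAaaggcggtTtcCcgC
H2afv: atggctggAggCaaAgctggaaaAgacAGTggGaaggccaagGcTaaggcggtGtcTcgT
In this stretch 13 bases differ, and the coding sequences were 79.1% identical over 387 bases, with at most 14 bases in a row shared. The 2 are thus separable, but H2afz shares 387 identical bases with the annotated gene Gm8203 and 682 bases at 99.9% with Tmcc1. Gm8203 was listed at 76.7 to 340 and Tmcc1 at 48.0 to 140, and reads from the shared stretches cannot be assigned with certainty.

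H2afz was at 6663 and 7510 in the double knockdown, 6010 and 5715 after Rbbp4 knockdown alone, 4861 and 5928 after Rbbp7 knockdown alone, and 4080 and 6454 in the control. The double knockdown libraries were the highest of the 8, and the control libraries spanned the single knockdowns. The log2 change in the double knockdown was 0.46 ± 0.20 (adjusted p = 0.273), and without control replicate 1 it was 0.13 ± 0.15 (adjusted p = 0.731). In the Rbbp4 knockdown it was 0.19 ± 0.20 and in the Rbbp7 knockdown 0.07 ± 0.20, with adjusted p of 0.934 and 0.945, and both were below 0 without that library, at −0.14 and −0.27.

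H2afv was at 801 and 639 in the double knockdown, 616 and 525 after Rbbp4 knockdown alone, 707 and 642 after Rbbp7 knockdown alone, and 615 and 747 in the control. The double knockdown and control libraries overlapped, at a log2 change of 0.08 ± 0.17 (95% interval −0.31 to 0.47, adjusted p = 0.866), and without control replicate 1 this was −0.06 ± 0.20. In the Rbbp4 knockdown it was −0.25 ± 0.17 (adjusted p = 0.890) and in the Rbbp7 knockdown −0.01 ± 0.17 (adjusted p = 0.992), or −0.39 ± 0.20 and −0.15 ± 0.20 without that library. Of 35 genes of the complexes that exchange H2A.Z, all 35 were tested and 0 were called in the double knockdown by limma, with 14 positive and 21 negative changes and a median of −0.04. The values with the smallest p were a log2 change of 0.38 for the INO80 subunit gene Ino80e (adjusted p = 0.149) and −0.34 for Morf4l2, whose product belongs to TIP60-EP400 (adjusted p = 0.190). Morf4l1, a paralogue in the same complex, was at −0.86 ± 0.15 in the Rbbp7 knockdown (adjusted p = 0.152).

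The ratio of H2afz to H2afx per kb was computed after both patterns had been seen and is a description only. It was 1.85 and 2.78 in the double knockdown, 1.85 and 1.77 after Rbbp4 knockdown alone, 1.05 and 1.25 after Rbbp7 knockdown alone, and 1.09 and 1.44 in the control. The 4 libraries with Rbbp4 siRNA had the 4 highest ratios. H2afx alone already separated these libraries from the others, while H2afz alone overlapped between them. H2afz made up 57.8% and 66.0% of the summed H2A variant level per kb in the double knockdown, 57.3% and 57.4% after Rbbp4 knockdown alone, 44.8% and 49.6% after Rbbp7 knockdown alone, and 45.7% and 52.6% in the control. Ratio and shares depend on the pooled exon lengths and on a capture that favours the polyadenylated messages of H2afx. The sum itself, 6487 and 6405 per kb in the double knockdown, lay within the control's 5031 and 6913.

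**Figure D4:**
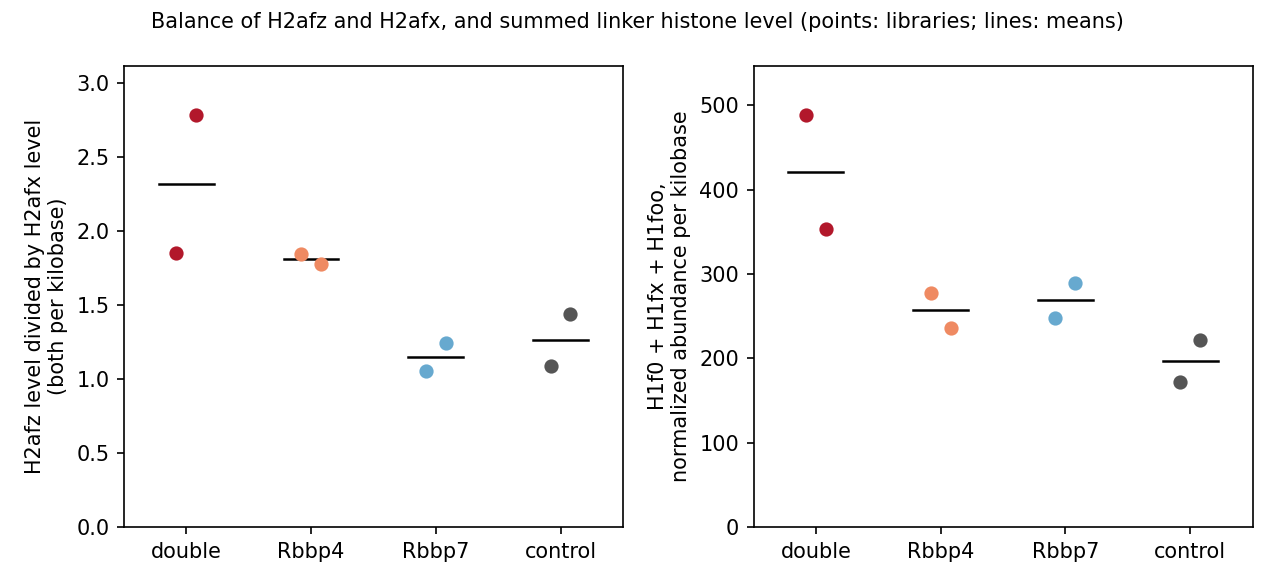
Ratio of H2afz to H2afx levels per kb, and summed level per kb of H1f0, H1fx and H1foo, with 1 point per library and a line at the mean of each group (double, Rbbp4 and Rbbp7 for the knockdowns, and control). The ratio is between 1.77 and 2.78 in the 4 libraries that received Rbbp4 siRNA and between 1.05 and 1.44 in the other 4, and the linker sum is highest in the double knockdown libraries, at 353 and 488. H2afx alone separates the libraries with Rbbp4 siRNA from the other 4, and H2afz alone does not.

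Neither macroH2A gene passed the test, and the less abundant one varied most between libraries of a group. H2afy, for macroH2A1, lies on chromosome 13 at 56073619 to 56136361, minus strand, with the antisense gene Gm47071. It was at 1447 and 1718 in the double knockdown, 2080 and 1709 after Rbbp4 knockdown alone, 2263 and 2144 after Rbbp7 knockdown alone, and 1623 and 1987 in the control. The Rbbp7 knockdown libraries were the highest of the 8, and the double knockdown overlapped the control. The log2 change was −0.19 ± 0.15 in the double knockdown (adjusted p = 0.568), 0.07 ± 0.15 in the Rbbp4 knockdown (adjusted p = 0.980) and 0.29 ± 0.15 in the Rbbp7 knockdown (adjusted p = 0.588). Without control replicate 1 it was −0.33 ± 0.17 in the double knockdown, −0.08 ± 0.17 after Rbbp4 knockdown alone and 0.15 ± 0.17 after Rbbp7 knockdown alone, with adjusted p of 0.418, 0.984 and 0.873. Its interaction, −0.55 ± 0.22 with an adjusted p of 0.760, was the 1 member interaction with an unadjusted p below 0.05, at 0.0308.

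H2afy2, for macroH2A2, lies on chromosome 10 at 61738665 to 61784147, minus strand, and overlaps Aifm2. It was at 12.7 and 24.8 in the double knockdown, 9.26 and 12.6 after Rbbp4 knockdown alone, 11.9 and 18.8 after Rbbp7 knockdown alone, and 3.81 and 16.0 in the control. All knockdown groups overlapped the control, and the log2 change in the double knockdown was 1.05 ± 0.80 (95% interval −0.75 to 2.85, adjusted p = 0.536), or 0.14 ± 0.76 without control replicate 1. In the Rbbp4 knockdown it was 0.38 ± 0.80 (adjusted p = 0.979) and in the Rbbp7 knockdown 0.82 ± 0.80 (adjusted p = 0.779). Both were below 0 without that library, at −0.53 and −0.09. Over 1122 bases H2afy2 is 95.9% identical to the pseudogene H2afy3, listed at 1.26 to 13.1. It also shares 235 identical bases with Aifm2, listed at 9.76 to 42.7, so the low values of H2afy2 are uncertain. Of 12 partner genes of macroH2A, all tested, 0 were called in the double knockdown by limma, with 3 positive and 9 negative changes and a median of −0.10. The smallest p were those of Ctcf, for an insulator protein, at −0.38 (adjusted p = 0.166), and Lbr, for the lamin B receptor, at −0.34 (adjusted p = 0.185).

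Counted without a test, 3 of 7 members had double knockdown libraries above both control libraries (H2afz, H1f0 and H1fx), beside 21.9% of all tested genes, and 1 of 7 below them (H2afx), beside 22.2%. In the Rbbp4 knockdown 1 of 7 was above the control (H1fx), beside 18.0%, and 1 of 7 below (H2afx), beside 17.4%. In the Rbbp7 knockdown 4 of 7 were above (H2afx, H2afy, H1f0 and H1fx), beside 19.9%, and 0 of 7 below, beside 19.7%.

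The knockdowns were also compared with each other. The log2 changes here are differences between knockdown means. The control libraries enter through the shared estimate of the spread, which sets the errors and p. They also enter through the filter on low values, which sets the genes tested. In the double knockdown against the Rbbp4 knockdown 0 of 7 members were called, beside 0.0159% of all tested genes, and 1 of 7 had an unadjusted p below 0.05, beside 9.57%. Without overlap were 5 of 7 higher (H2afz, H2afv, H2afy2, H1f0 and H1fx), beside 20.9%, and 0 of 7 lower, beside 21.5%. The smallest p was that of H1f0, at a log2 change of 0.67 ± 0.21 (adjusted p = 0.376), and H1fx stood at 0.75 ± 0.34 (adjusted p = 0.527). In the double knockdown against the Rbbp7 knockdown 0 of 7 were called, beside 0.358%, and 3 of 7 had an unadjusted p below 0.05, beside 15.0%. Without overlap were 3 of 7 higher (H2afz, H1f0 and H1fx), beside 23.1%, and 2 of 7 lower (H2afx and H2afy), beside 23.2%. Those with an unadjusted p below 0.05 were H2afx at −0.59 ± 0.15 (adjusted p = 0.124), H2afy at −0.48 ± 0.15 (adjusted p = 0.192) and H1fx at 1.08 ± 0.34 (adjusted p = 0.191). In the Rbbp4 knockdown against the Rbbp7 knockdown 0 of 7 were called, beside 0.0796%, and 1 of 7 had an unadjusted p below 0.05, beside 9.30%. Without overlap were 1 of 7 higher (H1fx), beside 22.9%, and 3 of 7 lower (H2afv, H2afx and H2afy), beside 22.7%. H2afx was at −0.53 ± 0.15 there (95% interval −0.87 to −0.19, adjusted p = 0.282).

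Chaperones and the machinery of histone messages were examined for the same question. Of 25 genes for chaperones of H2A-H2B and of linker histones 21 were tested and 0 were called in the double knockdown by limma, with 8 positive and 13 negative changes and a median of −0.03. Ipo9, an importin that carries H2A-H2B into the nucleus, was at −0.43 (adjusted p = 0.160), and Hmgn3, a nucleosome-binding protein that competes with linker histones, at 1.60 (adjusted p = 0.193). Of 14 genes for processing of replication-dependent histone messages 13 were tested and 0 were called, with 5 positive and 8 negative changes and a median of −0.06. Srrt, which links the cap-binding complex to RNA processing, was at −0.60 ± 0.16 (adjusted p = 0.106), and Cpsf2, a subunit of the cleavage complex, at −0.48 (adjusted p = 0.158).

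The genes whose pattern over the 8 libraries was most like that of H1f0, the member with the smallest adjusted p, were Cdc42ep5, Ppm1n and Pou2f3, with Pearson correlations of log2(normalized abundance + 1) of 0.98, 0.98 and 0.97. These are descriptions over libraries that share their groups and are the highest of 12565 tested genes.

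Promoter windows from 250 bases before to 50 bases after the RefSeq start were matched for 7 of the 8 genes; H2afx was not matched. CCAAT, searched on both strands, occurred 3 times in H2afz, 4 times in H2afv, 1 time in H2afy2 and 2 times in H1foo, and was not found in H1f0, H1fx or H2afy. It occurred in 37.4% of all promoter windows of that length. TTTGAA, the cell cycle homology element, occurred in H2afv alone of the 7 and in 17.9% of all windows. AAACACA, the H1 box, was in 0 of 7 and in 7.18% of all windows. The H1f0 window ends before its GENCODE start, which lies 238 bases downstream of the RefSeq start. The H1fx window reaches only 95 bases upstream of its GENCODE start. Sequence beyond these windows was not searched.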

How the data were processed

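The deposited values are a signal for each Ensembl gene. The name of the authors' table says that DESeq2 normalized them, so they are not raw counts. The submitters' processing notes name Trimmomatic, HISAT2, featureCounts, DESeq2 and GRCm38. Tool versions, annotation release and strand setting were not given in the sources used here. Raw depth is unknown, so no counting interval is given. Of 19058 identifiers, 18942 matched a symbol.

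Values were analysed as log2(value + 1), which understates changes of low genes. Genes with a mean of at least 10 were tested (12565; 6493 were left out) with limma 3.58.1 in R 4.3.3, with 1 mean per group over all 8 libraries, an intensity trend, 4 residual degrees of freedom and two-sided tests. Every adjusted p comes from this fit with Benjamini-Hochberg adjustment within a comparison. The fit was tested on simulated data. An error after a log2 change is the SE. Exon lengths and positions are from GENCODE M21 on GRCm38, and near-identical sequences were found with blastn 2.17.0 at 95% identity or more over at least 100 bases.

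The members, the 12 gene lists and the naming rule were chosen with earlier results of these data known. All members are named; from each list up to 4 called genes per comparison, or, with none called, up to 2 with the smallest p, may be named; the 3 genes most like the member with the smallest adjusted p are named. Alternatives were a pseudocount of 5, no filter, quantile normalization, median centring, a variance for each group, only the compared libraries, the replicate number as a block, and each library left out.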

Additional observations from a re-analysis of the deposited data

How the results depend on the processing

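No member was called under any alternative. The smallest adjusted p (limma, Benjamini-Hochberg) was that of H2afz in the double knockdown against the control with 1 library left out. That fit left 1 group with 1 library, and without control replicate 1 this log2 change was 0.13. Several alternatives leave the compared group means as they were, so those estimates could not move. They are no filter, a variance for each group, the replicate block, only the compared libraries, and leaving out a library outside the comparison. Of 924 log2 changes of members recomputed, 888 kept their sign, many for that reason, and 36, for a cause not tested, did not. Under quantile normalization those of H2afy2 became −0.0017 in the Rbbp4 knockdown against the control, −0.016 in the double against the Rbbp7 knockdown and −0.0090 for average Rbbp4 siRNA, and that of H2afx 0.0042 in the double against the Rbbp4 knockdown. Under median centring H2afv in the Rbbp7 knockdown against the control became 0.012. With single libraries left out, the range in the Rbbp4 knockdown against the control was −0.14 to 0.52 for H2afz, −0.076 to 0.22 for H2afy and −0.53 to 1.29 for H2afy2. In the Rbbp7 knockdown against the control it was −0.27 to 0.40 for H2afz, −0.15 to 0.13 for H2afv and −0.094 to 1.73 for H2afy2, and in the double knockdown against the control −0.086 to 0.24 for H2afv. Between knockdowns it was −0.26 to 0.15 for H2afx in the double against the Rbbp4 knockdown, −0.077 to 0.25 for H2afv and −0.23 to 0.69 for H2afy2 in the double against the Rbbp7 knockdown, and −0.017 to 0.27 for H2afz in the Rbbp4 against the Rbbp7 knockdown. For the interaction it was −0.12 to 0.54 for H2afz, −1.06 to 0.76 for H2afy2, −0.037 to 0.33 for H1f0 and −0.015 to 0.91 for H1fx. For the average effects it was −0.15 to 0.76 for H2afy2 with Rbbp4 siRNA, and −0.035 to 0.17 for H2afx and −0.055 to 0.092 for H2afy with Rbbp7 siRNA.

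Counts of all genes called moved more. For the double knockdown against the control the count was 144, 38 with a variance for each group and 3 from the compared libraries alone, and 27 to 99 with 1 library left out. For the double against the Rbbp7 knockdown it was 45, 13 from the compared libraries alone, and 5 to 42 with 1 library left out. For the Rbbp4 against the Rbbp7 knockdown it was 10, 65 with a variance for each group, 20 from the compared libraries alone, and 6 to 15 with 1 library left out. For the Rbbp7 knockdown against the control it was 3, 5 with a pseudocount of 5, and 1 to 38 with 1 library left out. With 1 library left out it was 2 to 36 for the Rbbp4 knockdown against the control (3 with all libraries), 2 to 13 for the double against the Rbbp4 knockdown (2), 1 to 21 for the interaction (1), 8 to 61 for average Rbbp4 siRNA (59) and 3 to 36 for average Rbbp7 siRNA (12). A group left with 1 library was assumed to vary like the others.

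Same-numbered libraries did not deviate together (correlations of −0.022 to 0.051 over 6 pairs of groups), so the numbers were not taken as pairs. With the replicate block 113 genes were called in the double knockdown against the control and 33 for average Rbbp4 siRNA, and 0 members in any comparison. With 2 libraries per group and unknown read depth, changes of members of the size seen here were not resolved.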

Other observations

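Among 25 other H2A genes listed, 20 were in the table and 5 were abundant enough to test; 0 were called in the double knockdown by limma (2 positive and 3 negative log2 changes, median −0.08). Hist3h2a was at 171 and 259 in the double knockdown, 96.3 and 141 after Rbbp4 knockdown alone, 79.2 and 106 after Rbbp7 knockdown alone, and 47.0 and 100 in the control, a log2 change of 1.60 ± 0.40 in the double knockdown against the control (adjusted p = 0.0976). H2afj, for H2A.J, a variant made from a replacement gene, was at 1496 and 1210 in the double knockdown, 1055 and 1099 after Rbbp4 knockdown alone, 1323 and 1136 after Rbbp7 knockdown alone, and 739 and 1127 in the control (0.56 ± 0.20, adjusted p = 0.206).

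On the log2 scale, Hist1h2ap, a canonical H2A gene, differed between libraries of the same group more than between group means. In the libraries numbered 1 and 2 it was at 148 and 566 in the double knockdown, 135 and 728 after Rbbp4 knockdown alone, 119 and 1580 after Rbbp7 knockdown alone, and 182 and 519 in the control. All 4 libraries numbered 2 lay above all 4 numbered 1, as they did for 1.35% of all tested genes. This was noticed in the values, and 0 of the 7 tested members had this arrangement.

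Of 10 morula markers 1 was called in the double knockdown against the control: Krt18, a keratin of the forming trophectoderm, fell by 1.08 ± 0.19 on the log2 scale (adjusted p = 0.0358), and 9 of 10 log2 changes were negative (median −0.54). The fall of Krt18 was not particular to the double knockdown. Its log2 change against the control was −1.51 ± 0.19 in the Rbbp7 knockdown (adjusted p = 0.0616). In the Rbbp4 knockdown it was −0.41 ± 0.19 (adjusted p = 0.851).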
